A study of Mus musculus with 8 samples.

Results

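Collagens are the proteins that form the fibers and sheets between cells, and each is built from 3 polypeptide chains, with a gene for each kind of chain. The collagen chain genes were taken from the gene counts of the B genome (C57BL/6J) as every protein-coding gene whose mouse symbol has the form Col, a number, a and a number. This rule found 44 of the 49585 genes of the table, and all 44 passed the filter that left 23113 genes for testing. The genes were divided by known chain structure into 11 fibrillar, 8 basement membrane, 6 beaded filament, 9 fibril-associated, 3 short-chain network and 4 transmembrane genes, with the last 3 (*Col7a1* of the anchoring fibrils, *Col26a1* and *Col28a1*) kept together. The question was whether maternal exposure to cadmium (Cd) moved the level of any chain or class in the newborn brain.

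Whole brains of 8 newborn female F1 pups, taken within 24 hours of birth, were analysed by RNA-seq, 4 from dams given 0 ppm Cd and 4 from dams given 50 ppm Cd as CdCl2. All pups were B × C hybrids (C57BL/6J dam, CAST/EiJ sire), dams received the metal in drinking water before mating and throughout pregnancy, and each pup came from a different litter. The pup was the unit of replication. Values are given as CPM (counts per 1000000 of the normalized library size) with the 4 brains of each dose as replicates 1 to 4, which are names in sample order and match no brain of the other dose.

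In every collagen, 3 chains wind around each other in a triple helix in which glycine, the smallest amino acid, opens each repeat of the pattern Gly-X-Y. Fibrillar collagens (types I, II, III, V, XI, XXIV and XXVII) pack side by side into fibrils, whereas type IV collagen joins end to end into the network of basement membranes. In the newborn brain, fibrillar collagens are known mainly from the meninges and the walls of larger vessels, and type IV collagen from the basement membrane around every vessel and at the brain surface.

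The repeat was visible in the coding sequence, and a stretch is shown of the most abundant chain per length of each of the 2 large classes as it illustrates what separates them. Capitals mark glycine codons. Codons 254 to 273 of *Col3a1* lie within its main helix and hold 7 glycine codons at regular spacing. Codons 215 to 234 of *Col4a1* hold 6 glycine codons, and 2 additional codons interrupt the spacing.
Col3a1, codons 254 to 273: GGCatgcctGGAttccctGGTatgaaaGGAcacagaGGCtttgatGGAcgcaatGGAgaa
Col4a1, codons 215 to 234: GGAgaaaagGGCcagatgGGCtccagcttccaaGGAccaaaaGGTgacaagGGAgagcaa

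Across the fibrillar genes, the longest unbroken run of Gly-X-Y triplets in the longest reading frame of the GENCODE transcripts was between 216 (*Col24a1*) and 344 triplets (*Col3a1*), with a median of 338. Genes of the basement membrane class had longest runs of only 30 to 66 triplets, split over 11 to 27 stretches of at least 5 triplets, compared with 2 or 3 stretches in the fibrillar genes. The fibril-associated genes reached 113 triplets in *Col9a1*, *Col9a2*, *Col9a3* and *Col22a1*, and the beaded filament genes 87 triplets in *Col6a1* and *Col6a2*. The short-chain genes were alike, with 59 or 60 triplets in 9 stretches. The choice of genes by symbol did not use these features, but the division into classes by known chain structure is not independent of them.

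**Figure D1:**
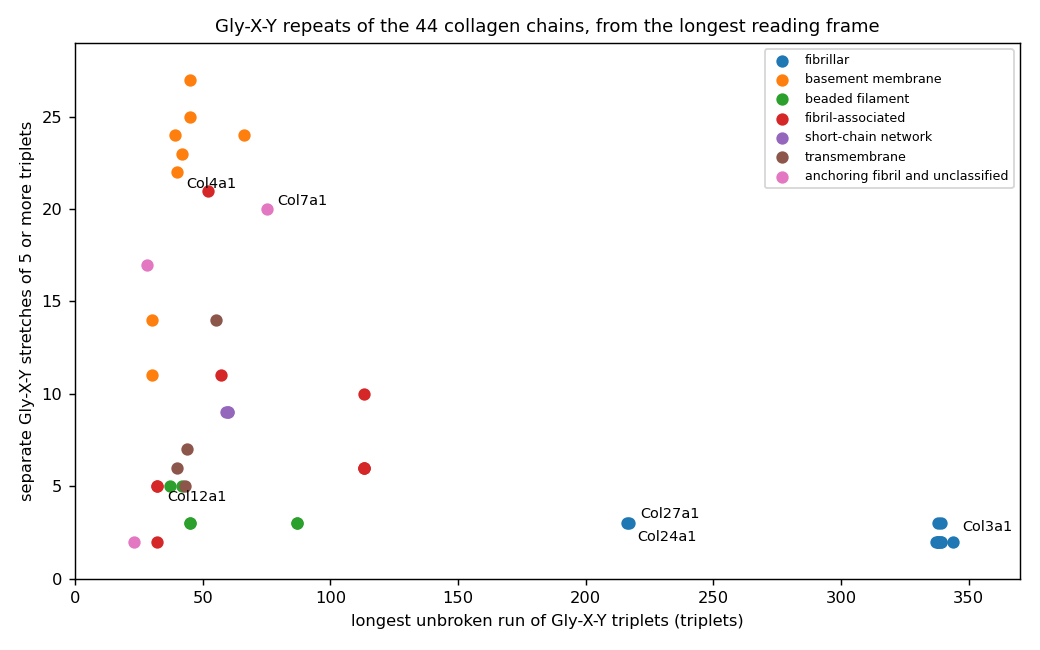
Gly-X-Y repeats of the 44 collagen chains: the longest unbroken run in triplets (x axis) against the number of separate stretches of at least 5 triplets (y axis), with 1 point per gene colored by class. The 11 fibrillar genes lie at 216 to 344 triplets with 2 or 3 stretches, and the 8 basement membrane genes at 30 to 66 triplets with 11 to 27 stretches.

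Total counts ranged from 22916434 to 30708087 per library, at which 3 counts correspond to 0.098 to 0.132 CPM. Summed markers of neurons were 3436 to 3887 CPM (*Tubb3* was listed at 0 in all 8 brains), so that the labelled tissue had its markers. Markers of tissues rich in collagen that could adhere to a dissected brain were low, with summed levels of 3.20 to 4.95 CPM for 8 cartilage genes, 2.96 to 4.37 CPM for 7 bone genes (*Mepe* listed at 0 in all) and 7.35 to 9.48 CPM for 7 skeletal muscle genes. The 10 markers of hindbrain and spinal cord were mostly *Hox* genes (*Hoxa3* was listed at 0 in all brains). The study had already reported increases of *Hox* genes in exposed newborn brains. All 9 tested were higher at 50 ppm at an unadjusted p under 0.05, and none was called after adjustment. This count cannot be set against the background, because the list was chosen with earlier results of these data known. All 9 markers were lowest in 0 ppm replicates 1 and 2, so they are not 9 separate results. Their summed level was 0.341 and 3.497 CPM in 0 ppm replicates 1 and 2 but 48.5 and 58.1 CPM in 0 ppm replicates 3 and 4, and 48.0 to 170.5 CPM at 50 ppm, and their part in the collagen results was not tested beyond leaving out these 2 controls.

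Collagen transcripts summed to 1496 to 1868 CPM per brain, and 57% of this sum over the 8 brains came from 4 genes, *Col4a1*, *Col4a2*, *Col1a2* and *Col3a1*. The sum was 1609 ± 150 CPM at 0 ppm and 1651 ± 150 CPM at 50 ppm (mean ± SD, n = 4), and the brain with the highest sum of each dose (0 ppm replicate 3 with 1822 CPM and 50 ppm replicate 3 with 1868 CPM) was close to that of the other dose. Per kilobase of merged exons, the highest mean levels were those of *Col4a1* (41.2 CPM per kb), *Col4a2* (35.8), *Col3a1* (19.9), *Col1a2* (15.2) and *Col1a1* (15.1). By class, the basement membrane genes contributed 40.0% of all collagen CPM, the fibrillar genes 37.5%, the fibril-associated genes 6.79%, the beaded filament genes 6.40%, the transmembrane genes 4.63%, *Col7a1*, *Col26a1* and *Col28a1* together 2.82%, and the short-chain genes 1.88%.

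No collagen chain gene was called different between 50 ppm and 0 ppm. In the quasi-likelihood test of edgeR, adjusted by the Benjamini-Hochberg method for all 23113 genes, 0 of 44 passed an adjusted p of 0.05 (background 0.0173% of all genes) and the smallest adjusted p among them was 0.999. At an unadjusted p under 0.05 there was 1 of 44, *Col23a1* (2.27% of the collagen genes, background 3.75%), and in 0 of 44 did the 2 doses not overlap in CPM (background 2.09%). DESeq2 likewise called 0 of 44 with 1 at an unadjusted p under 0.05, and limma-voom called 0 of 44 with 2. Fold changes were positive for 20 genes and negative for 24, with a median log2 fold change of -0.024 compared with -0.003 over all genes tested. The 95% intervals of 31 of the 44 genes lay within a 1.5-fold change in either direction and those of 41 within a 2-fold change. The other 3 (*Col10a1*, *Col17a1* and *Col20a1*) had few counts.

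**Figure D2:**
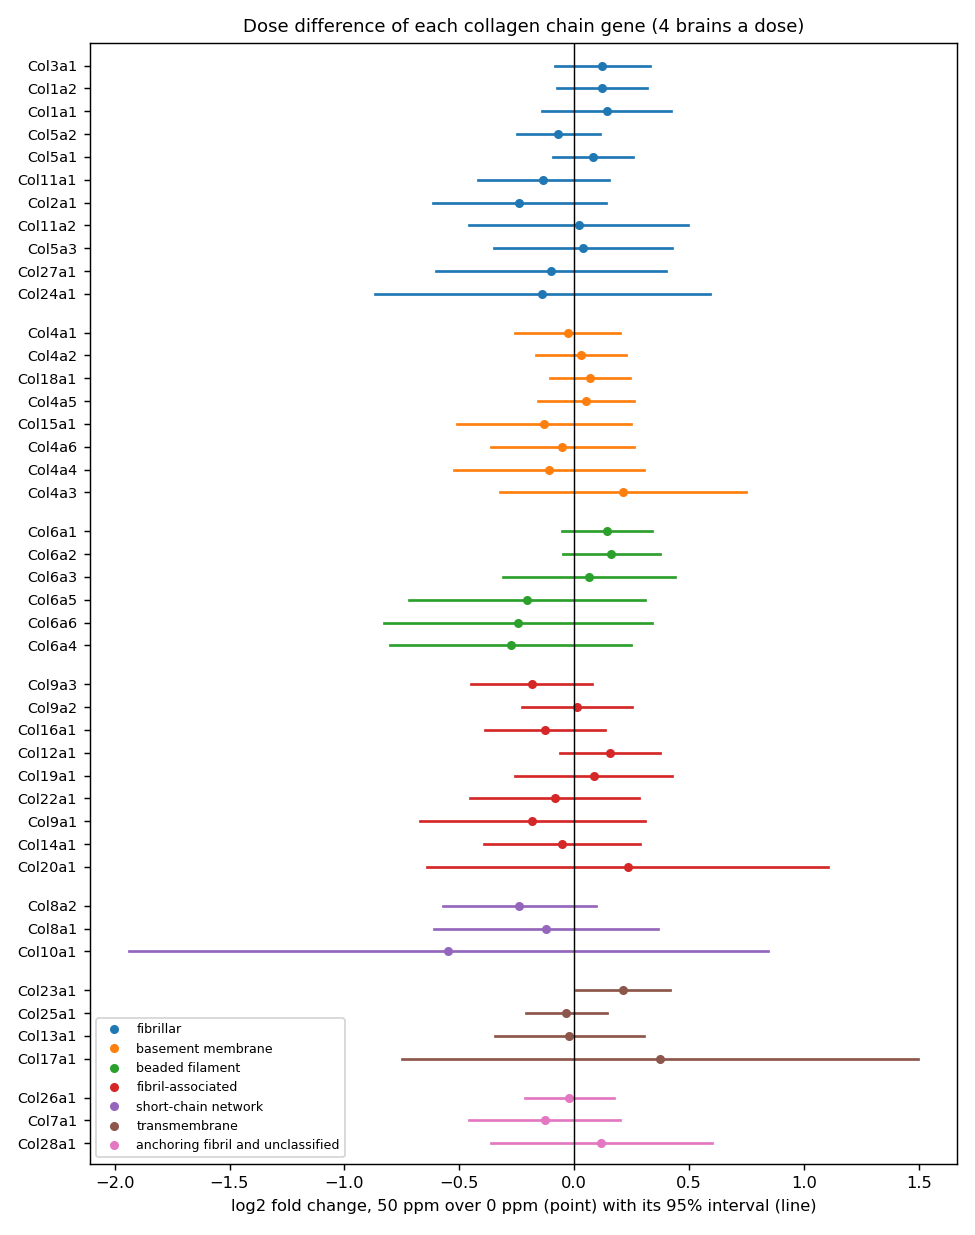
Log2 fold change of each collagen chain gene, 50 ppm over 0 ppm (points), with its 95% interval from edgeR (lines), by class and within class by level per kilobase. Only the interval of *Col23a1* (0.01 to 0.42) excludes 0, and the widest intervals are those of *Col10a1* and *Col17a1*.

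Among the 40 collagen genes with a mean of at least 1 CPM, the median SD of log2 CPM between brains of the same dose was 0.232, compared with 0.144 over the 14602 genes at that level. Groups of chains often shared their highest and lowest brains, as the plot of levels by brain shows. The brain 50 ppm replicate 3 had the highest level of 13 of the 44 genes and 0 ppm replicate 3 that of 8, whereas 50 ppm replicate 1 had the lowest level of 9, and 0 ppm replicates 2 and 4 of 8 each. Because these are bulk samples, fewer collagen-producing cells in a brain and less RNA per such cell cannot be told apart.

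**Figure D3:**
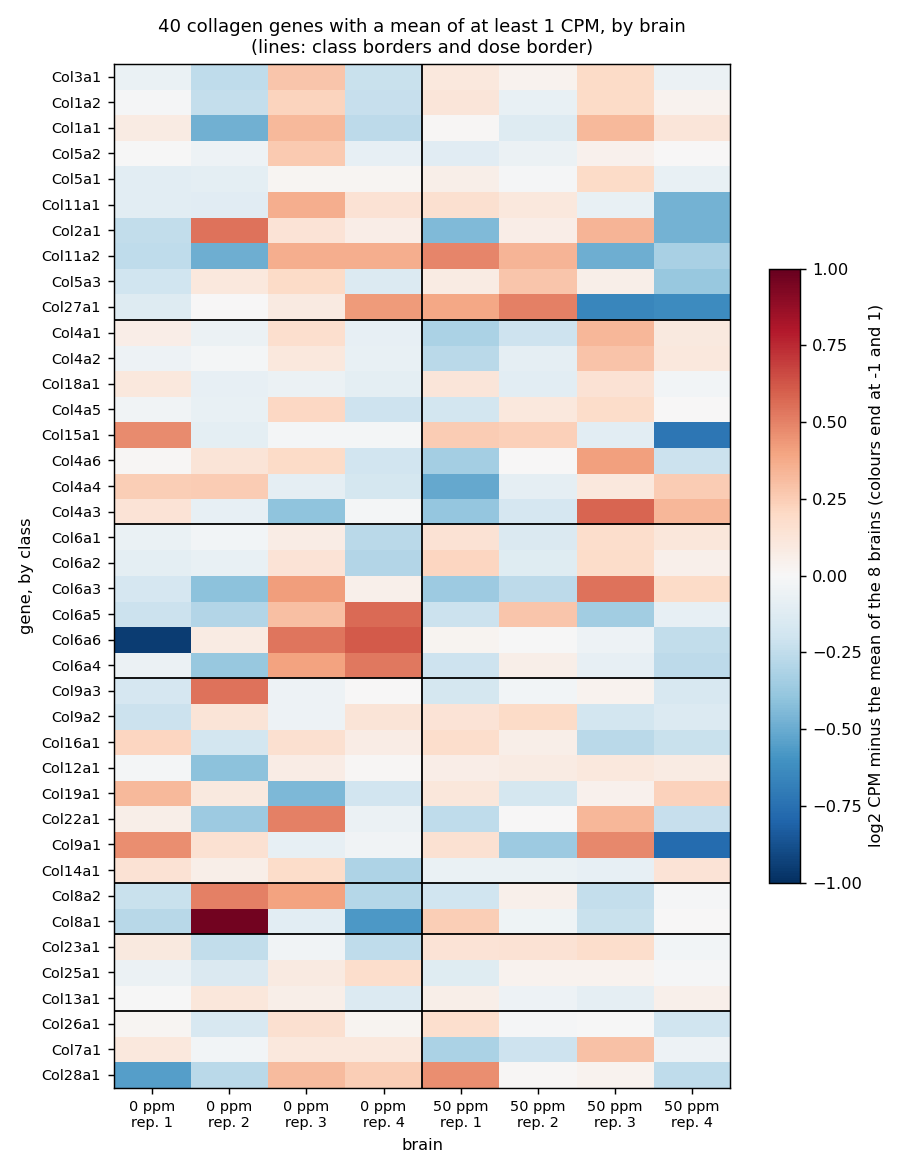
Levels of the 40 collagen genes with a mean of at least 1 CPM in each of the 8 brains, as log2 CPM minus the mean of that gene over all brains (color), with genes in rows by class and brains in columns by dose. *Col1a1*, *Col1a2* and *Col3a1* share their high brains (replicate 3 of each dose), and *Col8a1*, *Col8a2*, *Col9a3* and *Col2a1* are highest in 0 ppm replicate 2.

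The fibrillar genes as a class summed to 591 ± 91.9 CPM at 0 ppm and 630 ± 45.2 CPM at 50 ppm (mean ± SD, n = 4), a ratio of 1.06. The sums of the 4 controls were 590.9, 517.0, 720.9 and 536.4 CPM and those of the 4 exposed brains 637.0, 595.8, 690.6 and 595.0 CPM. The exposed brains thus fell within the range of the controls. Of the 11 genes, 6 had positive and 5 negative fold changes, with a median log2 fold change of 0.02 and values from -0.24 (*Col2a1*) to 0.14 (*Col1a1*).

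**Figure D4:**
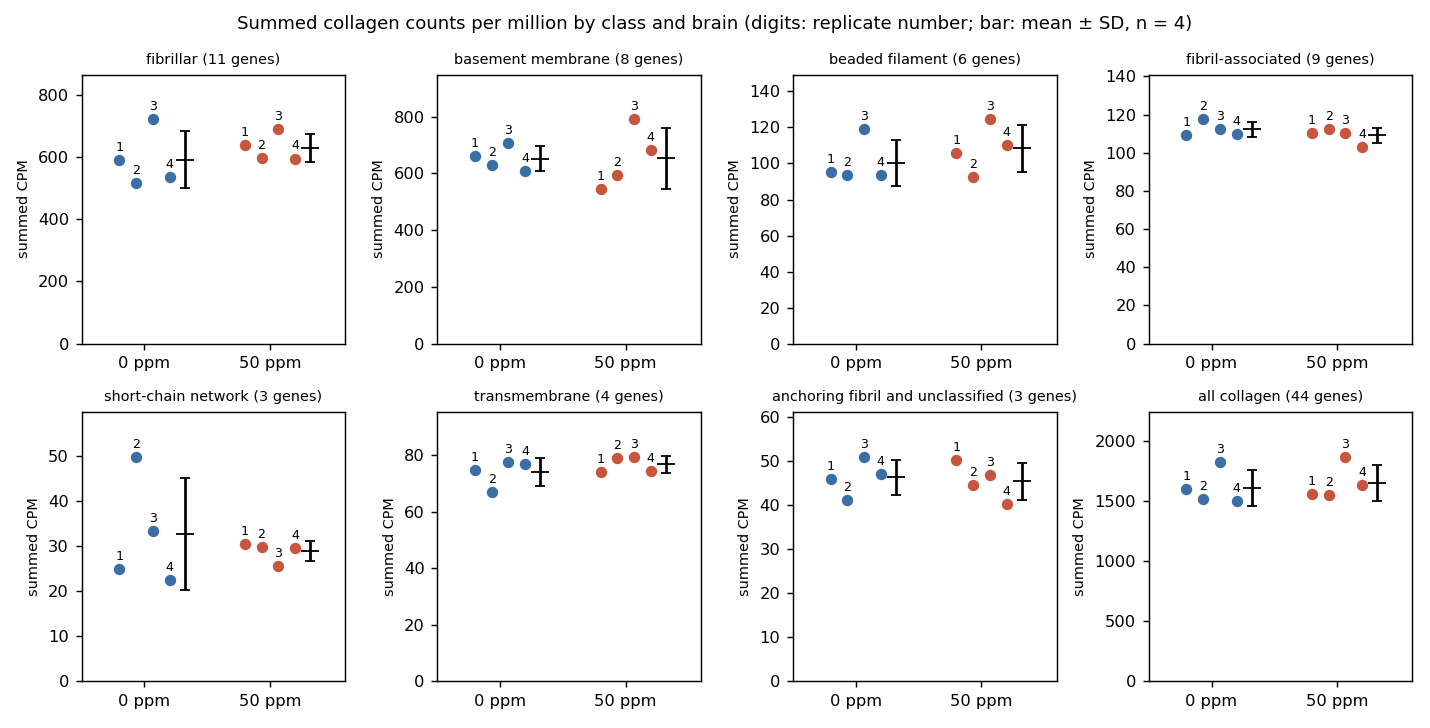
Summed CPM of each collagen class and of all 44 genes in the 8 brains (points, with the replicate number above each), with the mean and SD of the 4 brains of each dose beside them (bars), on axes that start at 0. The doses overlap in every panel, and the short-chain network panel shows 0 ppm replicate 2 apart from the others at 49.9 CPM.

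*Col3a1* (ENSMUSG00000026043, chr1:45311538-45349706, plus strand, GRCm38) encodes the chain of type III collagen, found in pliable tissue such as vessel walls and meninges. Its levels were 185, 163, 235 and 166 CPM in the controls and 209, 199, 222 and 186 CPM in the exposed brains. The highest and the lowest brain were both controls. The log2 fold change was 0.12 (SE 0.098, 95% interval -0.08 to 0.33, unadjusted p = 0.226, edgeR adjusted p = 0.999).

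*Col1a2* (ENSMUSG00000029661, chr6:4504814-4541544, plus strand) encodes the second chain of type I collagen, the main collagen of most connective tissue. Levels were 186, 159, 219 and 160 CPM in the 0 ppm brains and 204, 178, 214 and 192 CPM in the 50 ppm brains, with a log2 fold change of 0.12 (SE 0.093, 95% interval -0.07 to 0.32, edgeR adjusted p = 0.999). Its partner *Col1a1*, which supplies the other 2 chains of the type I molecule, was at 103, 69.9, 122 and 81.2 CPM in the controls and 97.9, 89.1, 122 and 106 CPM in the exposed brains. In all 3 genes 0 ppm replicate 3 was high and 0 ppm replicates 2 and 4 were low. Without 0 ppm replicate 3, *Col3a1* was higher at 50 ppm by a log2 fold change of 0.25 (unadjusted p = 0.00426, adjusted p = 0.530), *Col1a2* by 0.23 (adjusted p = 0.748) and *Col1a1* by 0.29 (adjusted p = 0.865) in edgeR. Only in this fit did these genes have an unadjusted p under 0.05, and none was called in any fit. As 0 ppm replicate 3 was the highest control for all 3, leaving it out had to raise the difference. Leaving out the low 0 ppm replicate 2 gave 0.06 for *Col3a1*, 0.07 for *Col1a2* and 0.02 for *Col1a1*. Summed markers of meningeal fibroblasts were 110.5 CPM in 0 ppm replicate 3 and 106.5 to 118.8 CPM over the 4 controls, against 116.8 to 131.0 CPM at 50 ppm (*Foxc2* listed at 0 in all brains). Of the 9 markers tested, 8 had positive fold changes, 2 at an unadjusted p under 0.05 (background 3.75% of all genes, in either direction). The part of these cells in the levels of the 3 genes was not tested.

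Type V collagen initiates type I fibrils and controls their width. *Col5a1* was at 33.9 to 36.9 CPM in controls and 34.5 to 41.5 CPM in exposed brains, and *Col5a2* at 40.6 to 51.3 and 39.6 to 44.3 CPM, so both varied little between brains. *Col5a3*, a rarer chain of the same type, was at 2.29 to 3.62 CPM over all 8 brains. The cartilage-type fibrillar chains were also detected. Of the 8 cartilage markers, whose sum is given above, 5 had positive and 3 negative fold changes, none at an unadjusted p under 0.05. Among them *Acan* was at 1.53 to 2.87 CPM and *Cnmd* at 0.484 to 1.47 CPM over the 8 brains, and the part of cartilage in these chains was not tested. *Col2a1*, the chain of type II collagen, was at 10.8, 18.7, 14.1 and 13.4 CPM in the controls and 9.44, 13.4, 16.2 and 9.22 CPM in the exposed brains, with a log2 fold change of -0.24 (95% interval -0.62 to 0.14). Without 50 ppm replicate 3 this became -0.41 at an unadjusted p of 0.0362 (edgeR adjusted p = 0.999). Its fibril partner *Col11a1* ranged from 14.4 CPM in 50 ppm replicate 4 to 25.8 CPM in 0 ppm replicate 3. *Col11a2* was low in 50 ppm replicates 3 and 4 (3.93 and 4.41 CPM) but also in 0 ppm replicates 1 and 2 (4.64 and 3.94 CPM), with 6.99 to 7.75 CPM in the other 4 brains. *Col27a1*, a chain of cartilage and other tissues, was at 2.53 and 2.56 CPM in 50 ppm replicates 3 and 4 and at 3.62 to 5.62 CPM elsewhere. *Col24a1* was at 9 to 36 counts per brain, the lowest of the class.

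The basement membrane genes summed to 652 ± 43.0 CPM at 0 ppm and 653 ± 107 CPM at 50 ppm (mean ± SD, n = 4), a ratio of 1.00. The means were alike, and the exposed brains were farther apart from each other (546.3, 594.1, 790.3 and 681.3 CPM) than the controls (660.9, 629.0, 708.1 and 609.6 CPM). The difference in spread was not tested. Of the 8 genes, 4 had positive and 4 negative fold changes, and the median log2 fold change was 0.001.

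*Col4a1* (ENSMUSG00000031502, chr8:11198423-11312826, minus strand) and *Col4a2* (ENSMUSG00000031503, chr8:11312805-11449287, plus strand) encode the chains of the type IV molecule present in all basement membranes. The 2 genes are transcribed away from each other, and their annotated starts overlap by 22 bases. *Col4a1* was at 319, 292, 342 and 288 CPM in the 0 ppm brains and 245, 264, 383 and 326 CPM in the 50 ppm brains (log2 fold change -0.03, SE 0.109, 95% interval -0.26 to 0.20, edgeR adjusted p = 0.999). *Col4a2* was at 228, 233, 254 and 224 CPM and 196, 222, 287 and 254 CPM (log2 fold change 0.03, SE 0.093, 95% interval -0.17 to 0.23, edgeR adjusted p = 0.999). Exposed replicate 1 was the lowest and exposed replicate 3 the highest of all 8 brains for both genes. Despite this spread the ratio of *Col4a1* to *Col4a2* remained between 1.19 and 1.40 in the 8 brains.

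Summed markers of endothelial cells, which together with pericytes produce the basement membrane of vessels, were 371.6, 321.4, 353.7 and 325.5 CPM in the controls and 335.5, 327.2, 384.8 and 380.8 CPM in the exposed brains, and none of the 10 passed an unadjusted p of 0.05. Summed markers of pericytes were 328.6, 278.5, 344.1 and 310.2 CPM and 327.9, 345.0, 376.8 and 394.3 CPM. Of these markers 3 of 8 were higher at 50 ppm at an unadjusted p under 0.05 (background 3.75% of all genes, in either direction), with none called. Thus 50 ppm replicate 3 was high, or the highest, in both lists and in *Col4a1* and *Col4a2*, while 50 ppm replicate 1, the lowest brain for both chains, was not the lowest for either list. The part of these cells in the type IV levels was not tested.

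The other 4 type IV chains occur in more specialized basement membranes. *Col4a5* (31.0 to 41.1 CPM) and *Col4a6* (9.47 to 15.9 CPM) lie head to head on the X chromosome with 1308 bases between their starts, and *Col4a3* and *Col4a4* lie head to head on chromosome 1 with 71 bases between them. The whole of this interval (GRCm38, chr1:82586850-82586920, written on the minus strand in the direction of *Col4a4*, from RefSeq) is shown because it separates the starts of both genes. Of its bases 69.0% are G or C.
Col4a4 to Col4a3: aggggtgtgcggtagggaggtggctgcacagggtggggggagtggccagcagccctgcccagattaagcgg

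*Col4a3* was at 1.01 to 1.47 CPM in controls and 1.02 to 2.00 CPM in exposed brains, and *Col4a4* at 2.52 to 3.39 and 2.00 to 3.40 CPM. The ratio of *Col4a3* to *Col4a4* ranged from 0.374 to 0.651. *Col15a1* and *Col18a1* encode collagens that carry heparan or chondroitin sulfate chains and lie at the outer side of basement membranes, and the end of the type XVIII chain is released as endostatin, an inhibitor of vessel growth. *Col18a1* was even between brains, at 41.6 to 47.8 CPM in controls and 41.3 to 49.1 CPM in exposed brains. *Col15a1* was less so, with 14.8, 9.97, 10.5 and 10.5 CPM in the controls and 12.7, 12.6, 9.92 and 6.48 CPM in the exposed brains. Its lowest level was in 50 ppm replicate 4, a brain in which *Col4a1* and *Col4a2* were above their means.

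Type VI collagen forms beaded filaments that link cells to the basement membrane. Its 6 genes summed to 100 ± 12.5 CPM at 0 ppm and 108 ± 13.1 CPM at 50 ppm (mean ± SD, n = 4), with 3 positive and 3 negative fold changes and a median log2 fold change of -0.07. None of the 6 was called. *Col6a1*, *Col6a2* and *Col6a3* had positive fold changes (0.14, 0.16 and 0.06 on the log2 scale), and *Col6a4*, *Col6a5* and *Col6a6*, which can take the place of the third chain, had negative ones (-0.28, -0.21 and -0.24), and none passed an unadjusted p of 0.05. The sign of *Col6a3* turned without 0 ppm replicate 2 (-0.05) and without 50 ppm replicate 3 (-0.13), and the difference between the chains was not tested. With 0 ppm replicates 1 and 2 left out, the median of the class was -0.35, and *Col6a4* (-0.58) and *Col6a6* (-0.63) had unadjusted p of 0.0485 and 0.0176 with adjusted p of 0.998 and 0.996 in edgeR.

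*Col6a1* (ENSMUSG00000001119, chr10:76708792-76726168, minus strand) was at 34.6, 35.6, 38.0 and 30.0 CPM in the 0 ppm brains and 39.9, 32.8, 40.9 and 39.1 CPM in the 50 ppm brains (95% interval -0.05 to 0.34, unadjusted p = 0.146, edgeR adjusted p = 0.999). *Col6a2* (ENSMUSG00000020241, chr10:76595762-76623630, minus strand) was at 32.6, 33.1, 38.3 and 28.4 CPM and 40.5, 32.1, 39.6 and 36.0 CPM (95% interval -0.05 to 0.37, unadjusted p = 0.123, edgeR adjusted p = 0.999). In *Col6a2*, exposed replicates 1 and 3 exceeded all controls and exposed replicate 4 exceeded 3 of them, whereas exposed replicate 2 was below 3 of them. Without this brain both genes had an unadjusted p under 0.05 (0.0376 and 0.0415, edgeR adjusted p = 1.00 in both). *Col6a3*, the largest chain, was more variable, at 20.8 to 36.9 CPM in controls and 21.5 to 40.2 CPM in exposed brains, with replicate 3 the highest of each dose. *Col6a4*, *Col6a5* and *Col6a6* were at 0.785 to 2.36 CPM throughout.

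Fibril-associated collagens do not form fibrils themselves but decorate their surface. Their 9 genes summed to 112 ± 3.76 CPM at 0 ppm and 109 ± 4.08 CPM at 50 ppm (mean ± SD, n = 4), the smallest relative SD at 0 ppm of the 7 classes. Fold changes were positive for 4 and negative for 5 genes with a median log2 fold change of -0.05. *Col9a3* (ENSMUSG00000027570, chr2:180597790-180622189, plus strand), a chain of type IX collagen, was at 26.4, 43.2, 28.6 and 29.7 CPM in the controls and 26.3, 29.1, 30.4 and 26.5 CPM in the exposed brains, with a log2 fold change of -0.19 (95% interval -0.45 to 0.08, edgeR adjusted p = 0.999). Only 0 ppm replicate 2 stood above the others, and without it the log2 fold change was -0.01. Without 0 ppm replicate 1 it was -0.27 (unadjusted p = 0.0479, edgeR adjusted p = 0.999). Of the merged exons of *Col9a3*, 6.1% overlap those of *Tcfl5* on the opposite strand, and the strand setting of the counting is not given in the sources used here. Such overlap was 5.6% for *Col4a3*, 3.4% for *Col6a4* and 2.5% for *Col5a1*, and at most 1.0% for any other collagen gene.

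*Col9a1* was at 1.72 to 4.10 CPM and *Col9a2* at 16.8 to 22.3 CPM over the 8 brains, and neither had its highest level in 0 ppm replicate 2. *Col12a1* (ENSMUSG00000032332, chr9:79598991-79718831, minus strand), whose product binds type I fibrils, was at 22.4, 17.1, 23.9 and 22.9 CPM in the 0 ppm brains and 23.8, 24.0, 24.4 and 24.0 CPM in the 50 ppm brains. The 4 exposed brains were nearly equal, 3 of them above all controls, and 0 ppm replicate 2 was the lowest brain. The log2 fold change was 0.16 (95% interval -0.06 to 0.37, unadjusted p = 0.147, edgeR adjusted p = 0.999), and 0.06 without that control. *Col14a1*, its close relative, was at 3.18 to 4.47 CPM, *Col16a1* at 12.6 to 17.6 CPM, *Col19a1*, which is expressed in neurons, at 5.32 to 9.11 CPM, *Col22a1* at 5.99 to 10.9 CPM and *Col20a1* at 0.246 to 1.12 CPM.

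Short-chain collagens assemble into hexagonal networks. Their 3 genes summed to 32.6 ± 12.4 CPM at 0 ppm and 28.8 ± 2.24 CPM at 50 ppm (mean ± SD, n = 4), a ratio of 0.883, and the 4 exposed brains fell within the range of the controls. Fold changes were negative for all 3, including *Col10a1* with few counts, and none passed an unadjusted p of 0.05. Their median log2 fold change was -0.24, and -0.10 without 0 ppm replicate 2. In 0 ppm replicate 2, *Col8a1* and *Col8a2* were both at their highest of the 8 brains. *Col8a1* (ENSMUSG00000068196, chr16:57624258-57754737, minus strand) was at 12.4, 29.3, 14.0 and 10.1 CPM in the controls and 17.8, 14.6, 12.9 and 15.1 CPM in the exposed brains, with a log2 fold change of -0.12 (SE 0.231, 95% interval -0.61 to 0.36, edgeR adjusted p = 0.999). Without 0 ppm replicate 2 the sign turned, to 0.31 (unadjusted p = 0.0389, edgeR adjusted p = 1.00). *Col8a2* (ENSMUSG00000056174, chr4:126286793-126314330, plus strand) was at 12.4, 20.5, 19.1 and 11.9 CPM and 12.6, 15.0, 12.3 and 14.4 CPM, with a log2 fold change of -0.24 (SE 0.158, 95% interval -0.57 to 0.09, unadjusted p = 0.149, edgeR adjusted p = 0.999). Here 0 ppm replicate 3 was nearly as high as replicate 2. The log2 fold change of *Col8a2* was -0.10 without 0 ppm replicate 2 and -0.14 without 0 ppm replicate 3, and it was -0.34 without 0 ppm replicate 1 (unadjusted p = 0.0409, edgeR adjusted p = 0.999) and -0.35 without 0 ppm replicate 4 (unadjusted p = 0.0351, edgeR adjusted p = 1.00).

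The brain 0 ppm replicate 2 also had the highest summed level of markers of the choroid plexus, the tissue in the ventricles that makes cerebrospinal fluid. The 5 markers summed to 559.1, 1178, 444.6 and 486.4 CPM in the 0 ppm brains and 345.6, 592.8, 545.1 and 785.9 CPM in the 50 ppm brains. Most of each sum was *Ttr*, at 1128 CPM in 0 ppm replicate 2. *Ttr*, *Folr1*, *Clic6* and *Kcnj13* were highest in that brain. *Kl* did not follow, with 3.76 CPM there and its highest level of 4.41 CPM in 50 ppm replicate 4. *Col2a1* (18.7 CPM) and *Col9a3* (43.2 CPM) were also highest in 0 ppm replicate 2. The second highest choroid plexus sum was that of 50 ppm replicate 4, in which *Col8a1* was at 15.1 CPM, *Col9a3* at 26.5 CPM and *Col2a1* at its lowest level of 9.22 CPM, and the part of this tissue in the 4 genes was not tested. The remaining gene of the class, *Col10a1*, known from the growth plate of bone, was represented by only 1 to 8 counts per brain. Its fold change is shown in the plot of fold changes and enters the median of the class. With the filter of at least 10 counts in 4 libraries, which removed it, that median was -0.178.

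The 4 transmembrane genes, whose products are anchored in the plasma membrane and can be shed from it, included the smallest p of all collagen genes. *Col23a1* (ENSMUSG00000063564, chr11:51289920-51583918, plus strand) was at 26.8, 21.2, 24.5 and 21.1 CPM in the controls and 27.6, 27.8, 28.4 and 24.7 CPM in the exposed brains. Of the exposed brains, 3 exceeded all controls and the other fell between them. The log2 fold change was 0.21 (SE 0.098, 95% interval 0.01 to 0.42, unadjusted p = 0.0423, edgeR adjusted p = 0.999). Over the other fits it was between 0.17 and 0.28, with adjusted p from 0.909 to 1.00, and 1 gene at this p among 44 is not more than the background of 3.75% gives.

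*Col25a1* (ENSMUSG00000058897, chr3:130131501-130599877, plus strand), made by neurons and known for binding amyloid, was the most abundant of the class by CPM. It was at 44.3, 41.7, 49.2 and 52.2 CPM in the 0 ppm brains and 42.5, 47.4, 47.3 and 45.9 CPM in the 50 ppm brains, with a log2 fold change of -0.03 (95% interval -0.21 to 0.14, edgeR adjusted p = 0.999). *Col13a1*, which acts at the neuromuscular junction, was at 3.21 to 3.83 CPM in all 8 brains. *Col17a1*, a component of hemidesmosomes in skin, was at 1 to 15 counts per brain. As a class the sums were 74.1 ± 4.88 CPM at 0 ppm and 76.8 ± 2.93 CPM at 50 ppm (mean ± SD, n = 4) with a median log2 fold change of 0.10 over 2 positive and 2 negative values. This median was -0.01 without 0 ppm replicate 1 and -0.04 without 0 ppm replicates 1 and 2.

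*Col26a1* (ENSMUSG00000004415, chr5:136741759-136883209, minus strand), a short secreted chain, was at 39.0, 34.4, 42.9 and 39.1 CPM in the controls and 43.2, 38.1, 38.4 and 33.5 CPM in the exposed brains (log2 fold change -0.02, 95% interval -0.21 to 0.17, edgeR adjusted p = 0.999). *Col7a1* (ENSMUSG00000025650, chr9:108953586-108984875, plus strand), which forms the fibrils that anchor epithelia, was at 5.46, 4.99, 5.45 and 5.46 CPM in the 0 ppm brains and 4.07, 4.39, 6.21 and 4.90 CPM in the 50 ppm brains. Of the exposed brains 3 were below all controls and the other above all of them, and the log2 fold change was -0.13 (95% interval -0.46 to 0.20, edgeR adjusted p = 0.999). *Col28a1* was at 1.47 to 2.68 CPM in controls and 1.81 to 2.98 CPM in exposed brains.

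Chains that are assembled into the same molecule or fibril were compared across the 8 brains in 10 pairs. All 10 Pearson correlations of log2 CPM were positive, and 6 passed an adjusted p of 0.05 in the exact two-sided permutation test with Benjamini-Hochberg adjustment over the pairs, whereas by Spearman's rho 3 did. The closest pairs were *Col6a1* and *Col6a2* (r = 0.96, exact permutation p = 0.000446, adjusted p = 0.00335, and rho = 0.95, p = 0.00114, adjusted p = 0.0057), *Col4a1* and *Col4a2* (r = 0.95, exact permutation p = 0.00067, adjusted p = 0.00335, and rho = 0.98, p = 0.000397, adjusted p = 0.00397) and *Col1a1* and *Col1a2* (r = 0.93, exact permutation p = 0.00131, adjusted p = 0.00438, and rho = 0.90, p = 0.00456, adjusted p = 0.0152). *Col1a1* and *Col3a1* had r = 0.85 (exact permutation p = 0.00838, adjusted p = 0.021) and rho = 0.79 (p = 0.0279, adjusted p = 0.0698).

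*Col4a5* and *Col4a6* had r = 0.76 (exact permutation p = 0.0289, adjusted p = 0.0482) and rho = 0.64 (p = 0.0962, adjusted p = 0.137). *Col11a1* and *Col11a2* also had r = 0.76 (exact permutation p = 0.019, adjusted p = 0.0379), with rho = 0.76 (p = 0.0368, adjusted p = 0.0735). Below the threshold were *Col8a1* and *Col8a2* (r = 0.69, exact permutation p = 0.0459, adjusted p = 0.0655, and rho = 0.74, p = 0.0458, adjusted p = 0.0764) and the head-to-head genes *Col4a3* and *Col4a4* (r = 0.64, exact permutation p = 0.083, adjusted p = 0.104, and rho = 0.55, p = 0.171, adjusted p = 0.214). The other 2 pairs showed little relation, namely *Col9a1* and *Col9a3* (r = 0.20, exact permutation p = 0.612, adjusted p = 0.680, and rho = 0.24, p = 0.582, adjusted p = 0.647) and *Col5a1* and *Col5a2* (r = 0.13, exact permutation p = 0.733, adjusted p = 0.733, and rho = -0.10, p = 0.840, adjusted p = 0.840).

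Without the 2 brains farthest from the median of the first chain, r was 0.91 for *Col6a1* and *Col6a2*, 0.83 for *Col4a1* and *Col4a2*, 0.84 for *Col1a1* and *Col1a2*, 0.62 for *Col1a1* and *Col3a1*, 0.49 for *Col4a5* and *Col4a6* and 0.97 for *Col11a1* and *Col11a2* over 6 brains, and none of the 10 passed the adjusted threshold in the exact permutation test. For *Col8a1* and *Col8a2*, r was 0.03 and rho 0.37 without 0 ppm replicates 2 and 4. Leaving out the farthest brains narrows the range of the first chain, which by itself can lower r, so a drop cannot show what a relation rests on. The brains of a pair share library, depth and the amount of each tissue taken, so that the correlation describes these 8 libraries.

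**Figure D5:**
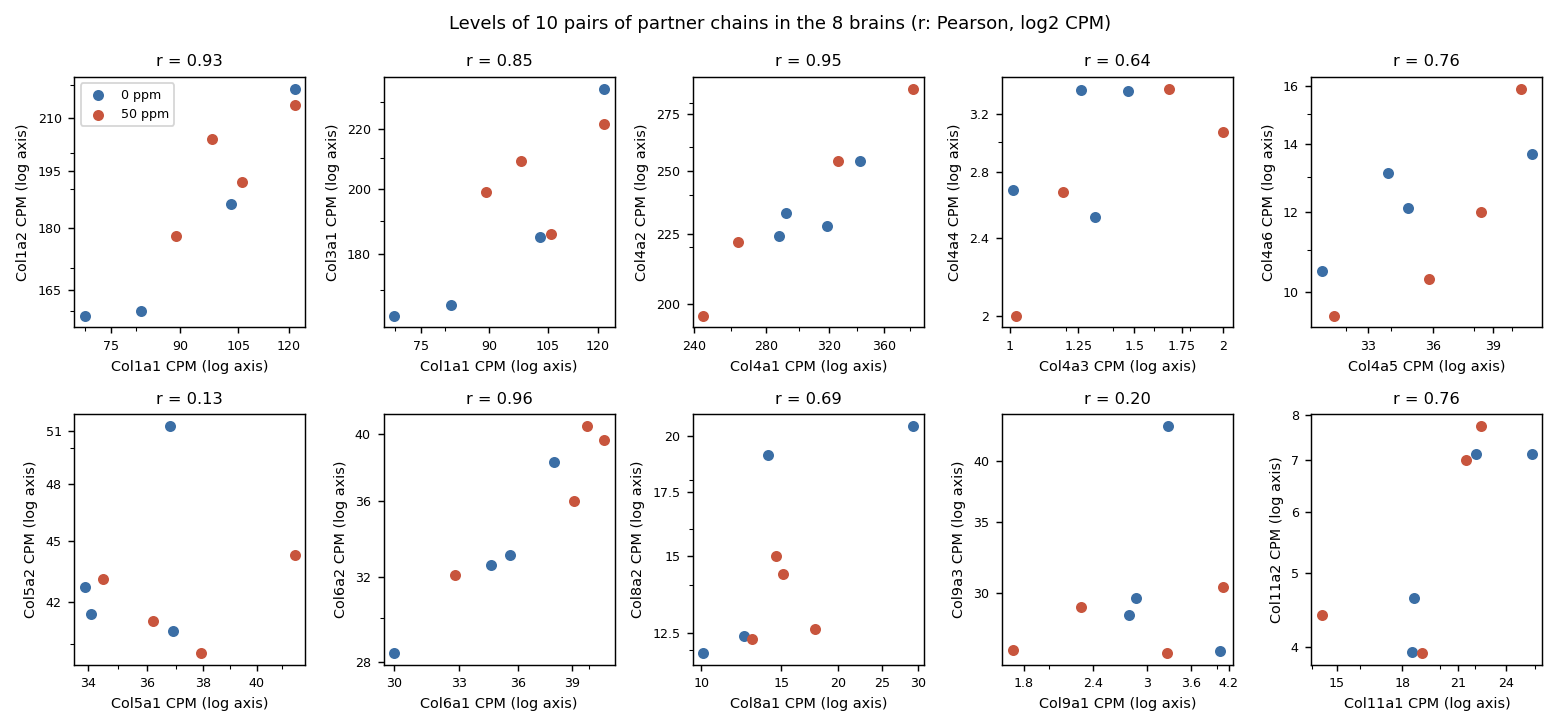
CPM of 10 pairs of partner chains in the 8 brains on logarithmic axes, with 1 point per brain colored by dose and the Pearson r of log2 CPM above each panel. Points follow a line in *Col6a1* with *Col6a2*, *Col4a1* with *Col4a2* and *Col1a1* with *Col1a2* (r of 0.93 to 0.96) and scatter in *Col5a1* with *Col5a2* (r = 0.13), and both doses lie along the same trend.

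In the 35 collagen genes with a RefSeq start (GRCm38.p6), the 250 bases before it were searched for 3 short motifs on both strands. CCAAT, bound by the NF-Y factor, occurred in 12 of 35 (34.5% of 27025 promoters), TATAAA in 5 of 35 (13.0%) and GGGCGG, bound by Sp1, in 21 of 35 (32.9%). *Col1a2* had CCAAT and GGGCGG, and *Col3a1* had TATAAA but neither of these. Thus GGGCGG stood in more of the collagen promoters than the share over all promoters gives, which is a description of these letters only.

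Genes that process, bind and remove collagen were examined as 6 lists with 81 genes, all of them tested. None was called after adjustment (smallest adjusted p = 0.999 in edgeR), and 5 of 81 had an unadjusted p under 0.05 (background 3.75% of all genes, in either direction), all of them higher at 50 ppm. Fold changes were positive for 50 and negative for 31, with a median log2 fold change of 0.06 compared with -0.003 over all genes. DESeq2 called 0 with 5 at an unadjusted p under 0.05 and limma-voom 0 with 6, and the named genes had adjusted p of 0.370 or more in each other fit.

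The enzymes that hydroxylate and fold the chains in the endoplasmic reticulum comprised 18 genes, of which 10 had positive and 8 negative fold changes (median 0.02) and 0 an unadjusted p under 0.05. *P4hb*, the shared subunit of prolyl 4-hydroxylase, was at 198 to 227 CPM in controls and 215 to 244 CPM in exposed brains, and *Mia3*, which loads procollagen into transport vesicles, at 152 to 164 and 144 to 161 CPM. *Serpinh1*, the chaperone specific for collagen, was at 68.5 to 98.1 and 72.3 to 91.7 CPM.

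Of the 13 genes for trimming of procollagen ends and cross-linking, 2 had an unadjusted p under 0.05 (background 3.75% of all genes, in either direction). They were 2 of the 5 among all 81 genes, and the list was not tested as a set. *Lox*, the enzyme that starts the cross-links, was at 18.6, 14.4, 17.3 and 17.2 CPM in the controls and 19.4, 17.4, 21.9 and 24.0 CPM in the exposed brains (log2 fold change 0.29, SE 0.115, unadjusted p = 0.0208, edgeR adjusted p = 0.999). *Pcolce*, which enhances removal of the C-terminal end, was at 7.99, 7.03, 7.64 and 6.85 CPM and 10.6, 8.64, 8.71 and 7.94 CPM (log2 fold change 0.28, SE 0.130, unadjusted p = 0.0439, edgeR adjusted p = 0.999). Here all exposed brains but replicate 4 lay above the controls. The more abundant *Bmp1*, the protease for this end, was at 47.3 to 55.4 and 43.8 to 54.2 CPM, and *Adamts3*, a protease for the other end, at 26.6 to 47.6 and 32.2 to 42.5 CPM.

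Among 14 proteins that bind collagen fibrils, 12 had positive fold changes with a median of 0.14, and *Sparc* was the only gene of the 81 whose doses did not overlap (background 2.09% of all genes, so that 1 of 81 is not more than the background gives). *Sparc*, a collagen-binding glycoprotein made by glia and vessel cells in the brain, was at 300, 287, 310 and 268 CPM in the 0 ppm brains and 314, 341, 323 and 352 CPM in the 50 ppm brains (log2 fold change 0.19, SE 0.068, unadjusted p = 0.0119, edgeR adjusted p = 0.999). *Fn1*, fibronectin, was at 167 to 220 and 161 to 248 CPM (log2 fold change 0.21, 95% interval -0.02 to 0.45). Of 15 further components of basement membranes, 9 had positive fold changes with a median of 0.05. *Nid1*, nidogen, which links laminin to type IV collagen, was at 98.1, 122, 111 and 93.7 CPM in the controls and 114, 116, 150 and 139 CPM in the exposed brains (log2 fold change 0.29, SE 0.098, unadjusted p = 0.00898, edgeR adjusted p = 0.999). *Agrn*, agrin, was the most abundant, at 424 to 525 and 454 to 497 CPM.

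Collagen receptors (10 genes, 5 positive and 5 negative, median -0.03) had no unadjusted p under 0.05. *Itgb1*, the integrin subunit shared by the collagen-binding integrins, was at 166 to 193 CPM in controls and 179 to 209 CPM in exposed brains, and *Ddr1*, a receptor kinase for collagen, at 101 to 109 and 90.4 to 102 CPM. Of the 11 genes of collagen breakdown, 7 had positive fold changes with a median of 0.10. *Timp4*, an inhibitor of matrix metalloproteinases, was at 7.27, 13.7, 15.5 and 13.9 CPM in the 0 ppm brains and 15.1, 19.3, 17.4 and 17.9 CPM in the 50 ppm brains (log2 fold change 0.47, SE 0.170, unadjusted p = 0.0132, edgeR adjusted p = 0.999), and 0 ppm replicate 1 was the lowest. Without that brain the log2 fold change was 0.28. *Timp2* (323 to 391 and 329 to 390 CPM) and *Timp3* (79.6 to 132 and 102 to 143 CPM) overlapped between doses. The 3 pericyte markers at an unadjusted p under 0.05 were likewise higher at 50 ppm, as were 2 meningeal markers, and the part of these cells in *Sparc*, *Nid1*, *Lox*, *Pcolce* and *Timp4* was not tested.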

How the data were processed

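RNA-seq counts of 8 newborn B × C female brains (4 per dose, all columns mapped by sample labels) were analysed. The authors extracted RNA from a weighed portion of each pulverized frozen brain, made poly(A) libraries, trimmed the first bases, aligned reads with STAR to the B genome (GRCm38, Ensembl annotation), counted them per gene with htseq-count and deposited raw counts without normalization. Tool versions and the strand setting are not given in the sources used here. As the pups are hybrids, reads of the C allele may align to the B genome less often, in both doses alike. The table for the C genome was not used here, since its identifiers were not paired with collagen names.

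Names and coordinates came from GENCODE vM21, which matched 49326 of 49585 identifiers. Genes with a count of 0 in more than 2/3 of libraries were removed by the rule the study states, which kept 23113, more than the study counted after its quality control, and these were tested with edgeR 4.0.16 in R 4.3.3 (TMM factors 0.986 to 1.02, glmQLFit and glmQLFTest, treatment only, Benjamini-Hochberg over all genes, threshold 0.05). The SE was the absolute log2 fold change over the square root of F, and 95% intervals used the t distribution of that fit. Replicate pairs of a dose differed by more than sampling noise (chi-square per degree of freedom 8.67 to 21.1). DESeq2 1.42.0, its size factors in edgeR, no filter, a minimum of 10 counts in 4 libraries, limma-voom 3.58.1 with quality weights and leaving out each library were the alternatives, and leaving out 0 ppm replicates 1 and 2 together was chosen after seeing the data. Correlations used log2 CPM with a prior count of 2 and all permutations. The fits were tested on simulated data. The 95% intervals include variation between brains of a dose as well as counting error.

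The collagen genes, lists and tests were chosen with earlier results of these data known. Values by brain were given for the 2 genes with the highest mean CPM of each class, the 5 with the smallest p and any whose doses did not overlap, and for pathway genes with an unadjusted p under 0.05. The 2 highest of each pathway list were given by their range per dose. Others, including *Col1a1*, *Col2a1*, *Col15a1*, *Serpinh1* and the genes named in single alternatives, were chosen after their values were seen.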

Additional observations from a re-analysis of the deposited data

Results flagged for a closer look

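In 132 groups of 4 brains (2 doses of each collagen gene, class sum and named pathway gene), 10 had a highest or lowest brain that stood apart by Dixon's criterion (gap over range above the 95% critical value), or 7.58%, where chance flags about 1 group in 20. Among collagen genes at 0 ppm, *Col7a1* was low in replicate 2 (4.99 CPM, others 5.45 to 5.46), *Col20a1* was high in replicate 2 (1.12 CPM, others 0.41 to 0.522), and *Col15a1* and *Col18a1* were both high in replicate 1 (14.8 CPM, others 9.97 to 10.5, and 47.8 CPM, others 41.6 to 42.6). At 50 ppm, *Col14a1* was high in replicate 4 (4.32 CPM, others 3.71 to 3.76). The sum of the beaded filament class was high in 0 ppm replicate 3 (119.0 CPM, others 93.4 to 95.1), and that of the short-chain class was low in 50 ppm replicate 3 (25.5 CPM, others 29.6 to 30.4). Of the pathway genes, *Mia3* was high in 0 ppm replicate 2 (164 CPM, others 152), *Fn1* was high in 0 ppm replicate 1 (220 CPM, others 167 to 175), and *Agrn* was low in 0 ppm replicate 2 (424 CPM, others 511 to 525). Of these groups, 8 were control groups. The high levels of *Col8a1* and *Col9a3* in 0 ppm replicate 2 were among the groups examined and did not pass this criterion.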

How the results depend on the processing

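No collagen gene was called under any of the 13 alternatives or with 0 ppm replicates 1 and 2 both left out, and the smallest adjusted p of a collagen gene was 0.530, for *Col3a1* without 0 ppm replicate 3. The count at an unadjusted p under 0.05 was 1 with DESeq2, its size factors and both filters, 2 with limma-voom (*Col23a1* and *Col6a2*), 0 to 5 when 1 library was left out, and 5 with both controls left out (*Col6a4*, *Col6a6*, *Col11a1*, *Col19a1* and *Col23a1*). It was 5 without 0 ppm replicate 3 (background 5.08% of all genes in that fit), 4 without 0 ppm replicate 1 (3.76%) and 0 without 50 ppm replicate 1 (3.9%). The share of all genes was 4.28% with both controls left out, 2.81% with DESeq2 and 4.89% with limma-voom. The median log2 fold change over the collagen genes was between -0.051 and 0.024 with 1 library left out. That of the transmembrane class was -0.012 to 0.117 with 1 left out, and with both controls left out the medians of the transmembrane, beaded filament and the *Col7a1*, *Col26a1* and *Col28a1* classes were -0.04, -0.347 and -0.162. Signs of small fold changes turned, and none of these genes was called in any fit. *Col8a1* was 0.16 with limma-voom, 0.32 with both controls left out and -0.29 to 0.31 with 1 left out. With 1 left out the ranges were -0.15 to 0.07 for *Col4a1*, -0.06 to 0.12 for *Col4a2*, -0.09 to 0.02 for *Col25a1*, -0.08 to 0.04 for *Col26a1*, -0.04 to 0.01 for *Mia3*, -0.05 to 0.05 for *Bmp1*, -0.11 to 0.16 for *Adamts3* and -0.07 to 0.03 for *Timp2*, and with both controls left out *Col4a2* was -0.0019, *Mia3* 0.0042 and *Timp2* 0.07.

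With values centred on their dose, r was 0.76 for *Col4a3* and *Col4a4* and 0.74 for *Col8a1* and *Col8a2*. Centring ties the values of a dose to each other, so they cannot be freely exchanged between doses as the permutation test requires. No p is therefore given for the centred values. Without the 2 farthest brains r was 0.84 for *Col1a1* and *Col1a2*, 0.62 for *Col1a1* and *Col3a1*, 0.83 for *Col4a1* and *Col4a2*, 0.49 for *Col4a5* and *Col4a6*, 0.91 for *Col6a1* and *Col6a2*, 0.97 for *Col11a1* and *Col11a2* and -0.03 for *Col9a1* and *Col9a3*, with fewer brains in each. The causes of the other shifts were not tested. All genes called were 4, and 18 with DESeq2, 52 without a filter, 2 with the stricter filter, 1 with limma-voom, 2 to 20 with 1 library left out and 7 with both controls left out. Genes under 1 CPM, 4 of the 44, were limited by depth. No paired analysis was possible because the labels number no replicates and each pup came from a different litter.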
